A study of Mus musculus with 4 samples.

Results

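The primary granule protein genes described here are Elane, Prtn3, Ctsg, Mpo, Ms4a3 and Prss57. They were taken by symbol from the gene list of a mouse single-cell data set, in which they make up 6 of 32285 genes. The rule uses no measured value, but the set was proposed with earlier results of these data known. The cells were Kit-positive bone marrow cells bearing the CD45.2 allele, collected 10 weeks after transplantation, in which transcripts and barcoded surface antibodies were counted together. There were 4 groups with 1 library each: a control and libraries labelled as deleted for Mll3, for Mll4 and for Mll3/4. Kmt2c encodes Mll3 and Kmt2d encodes Mll4, a pair of histone methyltransferases. What all 4 groups share is the selection for Kit and CD45.2 and the transplantation. The labels do not give the donor strain, the Cre or other means of deletion, the host, the sex, or whether a library is 1 animal or a pool. With 1 library a group no test between groups is possible, so each comparison is between libraries, and every 95% interval covers counting error only.

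Primary (azurophil) granules are the first granules that granulocyte precursors make, and their genes are transcribed at the promyelocyte stage and shut down as secondary and tertiary granules are filled. Elane, Prtn3, Ctsg and Prss57 encode the serine proteases neutrophil elastase, proteinase 3, cathepsin G and neutrophil serine protease 4, and Mpo encodes myeloperoxidase, the enzyme that makes hypochlorous acid from hydrogen peroxide. Ms4a3 is counted with them as a membrane-spanning protein of granulocyte-monocyte progenitors, although it is not a stored enzyme. In normal marrow these transcripts mark the granulocyte and early monocyte branch, and the protease genes depend on the factors PU.1, C/EBP, Runx1 and Myb.

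After filtering, 5350 to 7146 cells a library were kept, with 32777830 to 153615605 gene UMIs (unique molecular identifiers, each a counted transcript). Median depth per cell was 15754 UMIs in control and 16963.5, 5142 and 9965 UMIs in the Mll3-, Mll4- and Mll3/4-labelled libraries. Pairs of libraries shared 9 to 24 barcodes, at most 0.290% of the smaller one. Kmt2c was at 47.9 CPM (counts scaled to a common library total) in control, 27.2 in Mll3-labelled, 59.2 in Mll4-labelled and 34.8 in Mll3/4-labelled cells. Kmt2d was at 25.8, 21.6, 24.99 and 24.7 CPM in that order, so it did not fall with the Mll4 labels, and the libraries are named by their labels throughout. Xist was at 0.519 CPM in Mll4-labelled cells and at 954.8 to 1839 CPM in the other 3, so sex and the Mll4 label cannot be told apart there. In what follows, a gene is said to be higher or lower by the threshold when its log2 ratio of CPM, with 1 CPM added to both, is at least 1 in either direction, and rose and fell mean the same.

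The genes sit at 4 places in the genome (GRCm38, GENCODE M21). Prss57 (ENSMUSG00000020323, minus strand, 6 exons, chr10:79781474-79790961), Prtn3 (ENSMUSG00000057729, plus strand, 5 exons, chr10:79874476-79883174) and Elane (ENSMUSG00000020125, plus strand, 5 exons, chr10:79886247-79888215) lie within 106742 bp. Only 3072 bp separate Prtn3 from Elane. Ctsg (ENSMUSG00000040314, minus strand, 5 exons) is at chr14:56099881-56102574 beside mast cell protease genes. Mpo (ENSMUSG00000009350, plus strand, 14 exons) is at chr11:87793581-87804413, and Ms4a3 (ENSMUSG00000024681, minus strand, 7 exons) at chr19:11629496-11640851 among other Ms4a genes. Prtn3 overlaps Plppr3, and Prss57 overlaps Fstl3. Whether the counting used strand is not given in the sources used here, so reads in such overlaps are uncertain.

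The 4 protease and peroxidase genes with the most UMIs moved together over cell types. The stretches just before the RefSeq starts of 3 of them are therefore shown, from the RefSeq promoter table on GRCm38.p6. For Prtn3 that start lies inside the GENCODE span of the gene given above, and so does its stretch. Each is the part of the 250 bases before the RefSeq start that lies outside annotated exons, read 5′ to 3′ on the strand of the gene: Elane chr10:79886062-79886246 (plus), Prtn3 chr10:79879417-79879613 (plus) and Ctsg chr14:56102575-56102824 (minus). Capitals mark GAGGAA, letters bound by PU.1, and in Ctsg also ACCACA, the reverse complement of the Runx letters TGTGGT.
Elane: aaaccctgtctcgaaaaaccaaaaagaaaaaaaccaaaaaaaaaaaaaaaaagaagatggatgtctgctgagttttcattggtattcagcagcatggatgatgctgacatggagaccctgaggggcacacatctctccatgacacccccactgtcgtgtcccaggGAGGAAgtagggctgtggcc
Prtn3: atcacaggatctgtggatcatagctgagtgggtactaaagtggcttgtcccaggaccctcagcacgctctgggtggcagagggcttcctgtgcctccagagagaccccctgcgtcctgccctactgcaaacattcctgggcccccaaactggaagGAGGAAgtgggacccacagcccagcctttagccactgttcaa
Ctsg: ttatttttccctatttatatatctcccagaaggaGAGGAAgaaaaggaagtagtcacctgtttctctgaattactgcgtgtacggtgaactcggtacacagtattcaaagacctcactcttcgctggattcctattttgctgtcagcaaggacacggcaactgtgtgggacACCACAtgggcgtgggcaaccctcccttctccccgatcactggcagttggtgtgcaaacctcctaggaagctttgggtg
Of the 6 genes, 5 had an entry in that table, and Prss57 had none. Within 250 bases before the start, on both strands, GAGGAA was present in 4 of 5 (Elane, Prtn3, Ctsg and Mpo) and in 23.3% of all 32851 promoters. It lay 85 to 80 bases before the start in Elane and 95 to 90 in Prtn3, the neighbouring pair, but 216 to 211 bases before it in Ctsg. TGTGGT was present in 1 of 5 (14.05% of all), the C/EBP letters TTGCNNAA in 0 of 5 (9.56% of all) and the Myb letters AACNG in 4 of 5 (74.2% of all). A match describes letters and not a bound site.

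Over all kept cells, Elane was at 1121 CPM in control (95% interval 1116 to 1126), 1320 in Mll3-labelled cells, 1126 in Mll4-labelled cells and 49.0 in Mll3/4-labelled cells (47.5 to 50.6). Prtn3 was at 1119, 1443, 1027 and 69.2 CPM in the same order. Ctsg was at 823, 855, 755 and 34.0 CPM. Each of these 3 protease genes was thus low in Mll3/4-labelled cells alone. Mpo was at 898 CPM in control (893 to 903), 977 in Mll3-labelled, 1635 in Mll4-labelled (1621 to 1649) and 35.7 in Mll3/4-labelled cells. Ms4a3 was at 212, 220, 231 and 11.3 CPM, and Prss57 at 44.8, 48.9, 45.8 and 2.05 CPM. Mpo was therefore the one gene of the 6 that stood apart in Mll4-labelled cells too. A UMI here counts 1 transcript end, so these CPM values are not divided by transcript length.

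**Figure D1:**
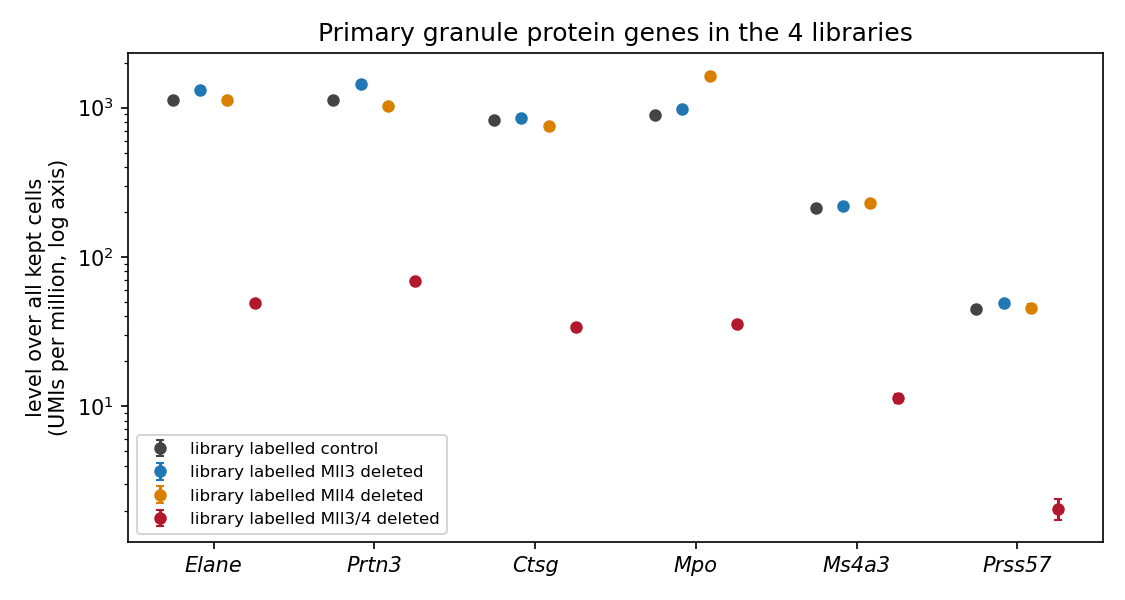
CPM of each of the 6 genes over all kept cells (log axis) in the 4 libraries, with exact 95% Poisson intervals for counting error. All 6 points of the Mll3/4-labelled library lie far below the other 3 libraries, from 2.05 CPM for Prss57 to 69.2 CPM for Prtn3, and Mpo is highest in Mll4-labelled cells.

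In Mll3/4-labelled cells all 6 genes fell, with log2 ratios of -3.91 (Prss57) to -4.61 (Mpo), against 11.7% of 15158 tested genes lower and 12% higher by the threshold. Their median was -4.30 (-4.35 to -4.25), while the median over all tested genes was -0.01. Counted from the lowest log2 ratio upwards, Mpo was at rank 51, Ctsg at 55, Elane at 63, Ms4a3 at 107, Prtn3 at 121 and Prss57 at 130 of 15158. In Mll3-labelled cells 0 of 6 passed the threshold (0.467% of all tested genes were lower and 0.199% higher), and the log2 ratios ran from 0.05 (Ctsg) to 0.37 (Prtn3). In Mll4-labelled cells again 0 of 6 passed (2.91% lower, 5.74% higher), with Mpo at 0.86 (0.85 to 0.88) and the other 5 between -0.12 and 0.12. The Mll3/4 log2 ratio minus the sum of the Mll3 and Mll4 log2 ratios ran from -4.07 for Prss57 to -5.60 for Mpo, with a median of -4.39 (-4.45 to -4.33) against 0.01 over all genes. All 3 ratios in that difference share the control library.

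These values mix cell types, since fewer cells of a type and less RNA per cell cannot be told apart in a sum over all cells. Cells were therefore clustered without the 6 genes, and clusters were named from marker lists that hold none of them. Granulocyte progenitor-like cells, named from genes such as Cst7, Nkg7 and Gfi1 (9 of 9 markers detected), numbered 282 in control, 284 in Mll3-labelled, 63 in Mll4-labelled and 5 in Mll3/4-labelled cells. They made up 3.95% of control cells and held 34.4% of all control UMIs of the 6 genes. Together the 6 genes reached 40991 CPM in the control cells of this class.

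In control, Elane was at 13401 CPM in granulocyte progenitor-like cells, 4995 in monocyte progenitor-like, 285 in neutrophil-like, 115 in basophil/mast-like, 81.1 in HSC/MPP-like (stem and multipotent progenitor) and 22.8 in erythroid progenitor-like cells. Prtn3 was at 10702, 5754, 297, 528, 539 and 42.6 CPM in the same classes. Mpo was at 7497, 5348, 141, 793, 223 and 42.8 CPM. The order of the first 2 classes was shared by all 3 genes, but the order further down was not: Elane was higher in neutrophil-like than in HSC/MPP-like cells, and Prtn3 and Mpo the reverse. Ctsg was at 7208, 3582, 126, 931, 203 and 38.7 CPM in those classes. Ms4a3 was at 1807, 648, 211, 388, 43.1 and 10.2 CPM, and Prss57 at 375, 109, 50.5, 27.6, 24.2 and 2.996 CPM. In B-cell progenitor-like control cells the 6 genes together were at 794 CPM.

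Some cells with these transcripts lay in clusters that the markers left unnamed. A cluster led by F13a1, Gria3 and Ccr2 had the 6 genes together at 32745 CPM in control (203 cells), 32158 in Mll3-labelled (261 cells) and 24438 in Mll4-labelled cells (183 cells). A cluster led by Ccl9, Prg2, Cd34 and Cebpa was at 7686, 7666 and 6354 CPM. A cluster led by histone genes, Cd34 and Cpa3 was at 3515, 4206 and 4035 CPM, with Elane at only 168 CPM in control there. The unnamed clusters held 43.1% of the control UMIs of the 6 genes.

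**Figure D2:**
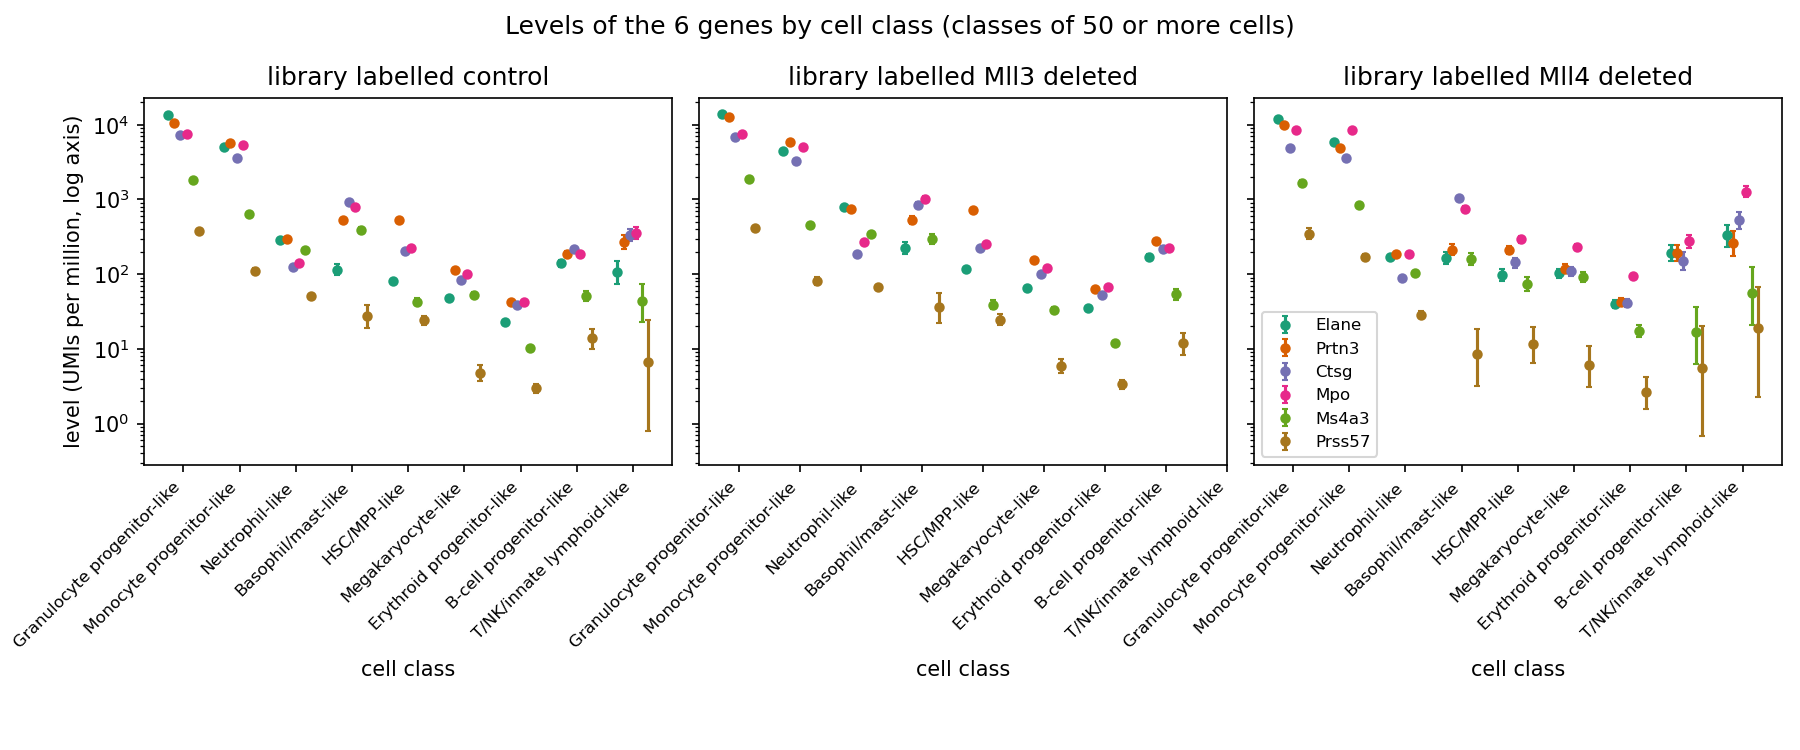
CPM of each gene (log axis) by cell class in the control, Mll3-labelled and Mll4-labelled libraries, for classes with at least 50 cells, with exact 95% Poisson intervals for counting error. Granulocyte and monocyte progenitor-like cells lie highest for all 6 genes, and erythroid progenitor-like cells lie lowest or near the lowest.

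Droplets also capture free RNA from broken cells, and its level was not measured directly. Values per cell in classes not known to make these transcripts are therefore given beside the others. In control, Elane averaged 0.98 UMIs per cell in erythroid progenitor-like, 0.94 in B-cell progenitor-like, 0.89 in megakaryocyte-like and 0.93 in HSC/MPP-like cells, against 258 in granulocyte progenitor-like cells. Elane in HSC/MPP-like cells was thus no higher per cell than in erythroid cells, at a median depth of 11177 against 46779.5 UMIs. The part of free RNA in its CPM there was not tested. The 6 genes together averaged 6.91 UMIs in erythroid, 5.38 in B-cell and 6.76 in T/NK/innate lymphoid-like control cells, a like number per cell in unrelated classes. As CPM, the shallow B-cell class therefore stood at 794 CPM and the deep erythroid class at 160 CPM.

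Prtn3 departed from this in HSC/MPP-like cells. It averaged 6.21 UMIs per cell there in control, against 1.84 in erythroid and 1.28 in B-cell progenitor-like cells. After thinning each cell to 2000 UMIs, 62.1% of control HSC/MPP-like cells had a Prtn3 UMI (58.4 to 65.6%), against 12.5% of erythroid cells. For Elane the shares were 16.2% and 7.53%. Among control HSC/MPP-like cells with exactly 1 of the 6 genes, 159 of 270 had Prtn3. Mpo and Ctsg averaged 2.58 and 2.34 UMIs in HSC/MPP-like cells, against 1.85 and 1.67 in erythroid cells.

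Free RNA from 1 source would keep the genes in 1 ratio, so the make-up of the UMIs of the 6 genes was compared between classes. In control erythroid cells it was 14.2% Elane, 26.6% Prtn3, 24.2% Ctsg and 26.8% Mpo, and in B-cell progenitor-like cells 17.5%, 23.8%, 27.1% and 23.4%. In granulocyte progenitor-like cells it was 32.7% Elane, 26.1% Prtn3, 17.6% Ctsg and 18.3% Mpo. Elane thus took the largest part in the class with the highest level and a smaller part where the level was low. In HSC/MPP-like cells 48.4% was Prtn3 and 7.3% Elane. In basophil/mast-like cells 33.5% was Ctsg, 28.5% Mpo and 13.95% Ms4a3, with 4.1% Elane. In neutrophil-like cells 19.0% was Ms4a3 and in megakaryocyte-like cells 13.1%, against 6.4% in erythroid cells.

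**Figure D3:**
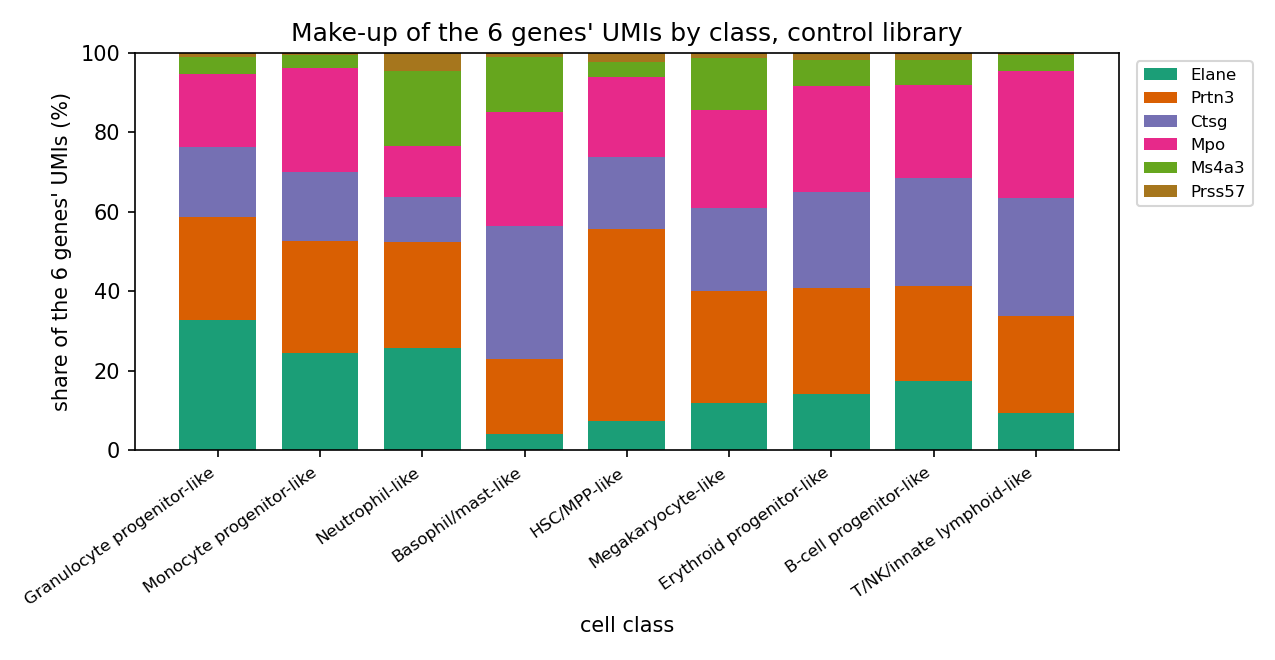
Share (%) of each gene in the summed UMIs of the 6 genes, by cell class in the control library. Prtn3 takes 48.4% in HSC/MPP-like cells, Elane takes 32.7% in granulocyte progenitor-like and 4.1% in basophil/mast-like cells, and Ms4a3 takes 19.0% in neutrophil-like cells.

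Ms4a3 in megakaryocyte-like cells averaged 0.99 UMIs per cell in control against 0.44 in erythroid cells, while Elane averaged 0.89 and 0.98. After thinning, 12.3% of megakaryocyte-like and 3.58% of erythroid control cells had an Ms4a3 UMI, at median depths of 17971 and 46779.5 UMIs. In Mll3-labelled cells these shares were 7.77% and 3.26%, and in Mll4-labelled cells 17.3% and 5.20%. The share was above that of erythroid cells in all 3 libraries. Erythroid cells were the deeper class in control, and the part of depth or free RNA in these shares was not tested.

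Detection in granulocyte progenitor-like cells was near complete for 5 of the 6 genes. After thinning, every such cell of the control, Mll3-labelled and Mll4-labelled libraries had a UMI of Elane, Prtn3, Ctsg and Mpo. Ms4a3 was seen in 95.02%, 96.1% and 98.4% of them and Prss57 in 53.4%, 55.8% and 50.8%. All 6 genes were seen together in 51.6%, 53.4% and 50.8%. For Elane, Prtn3, Ctsg and Mpo detection is saturated at these levels, so their shares do not describe how the level varies between cells.

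The surface antibodies give a second sorting of the cells that does not use RNA. Among Sca-1-negative, CD117-positive cells without CD11b or B220, the gate CD34-negative and CD16/32-positive had the 6 genes together at 28580 CPM in control, 30897 in Mll3-labelled and 28508 in Mll4-labelled cells. The gate CD34-positive and CD16/32-positive, which holds granulocyte-monocyte progenitors, had 23109, 20558 and 20309 CPM. The gate CD34-positive and CD16/32-negative had 5293, 4096 and 9798 CPM, and the gate negative for both had 861, 323 and 2234 CPM. The CD16/32-positive gates were highest in all 3 libraries. The Sca-1-positive, CD117-positive gate, where stem and multipotent cells lie, had 1082, 1749 and 1133 CPM.

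Binned by CD16/32 into 5 equal groups, the CD117-positive, Sca-1-negative control cells without CD11b or B220 had the 6 genes together at 272, 490, 994, 6202 and 25756 CPM from the lowest to the highest group. The median antibody count of those groups was 4, 9, 16, 36 and 135. Elane went from 25.5 to 7475 CPM and Prtn3 from 83.2 to 6454 CPM over the same groups. In Mll3-labelled cells the 5 values were 278, 441, 969, 4727 and 27673 CPM. In Mll4-labelled cells they were 857, 1193, 6909, 22111 and 21786 CPM, so the step up began 1 group earlier and the last 2 groups were alike. In Mll3/4-labelled cells they were 30.2, 30.9, 28.2, 39.1 and 1127 CPM, where the highest group had a median antibody count of 11. The groups are quantiles within a library, and at similar antibody counts of 36 in control and 24 to 54 in Mll4-labelled cells the 6 genes were at 6202 and at 6909 to 22111 CPM.

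**Figure D4:**
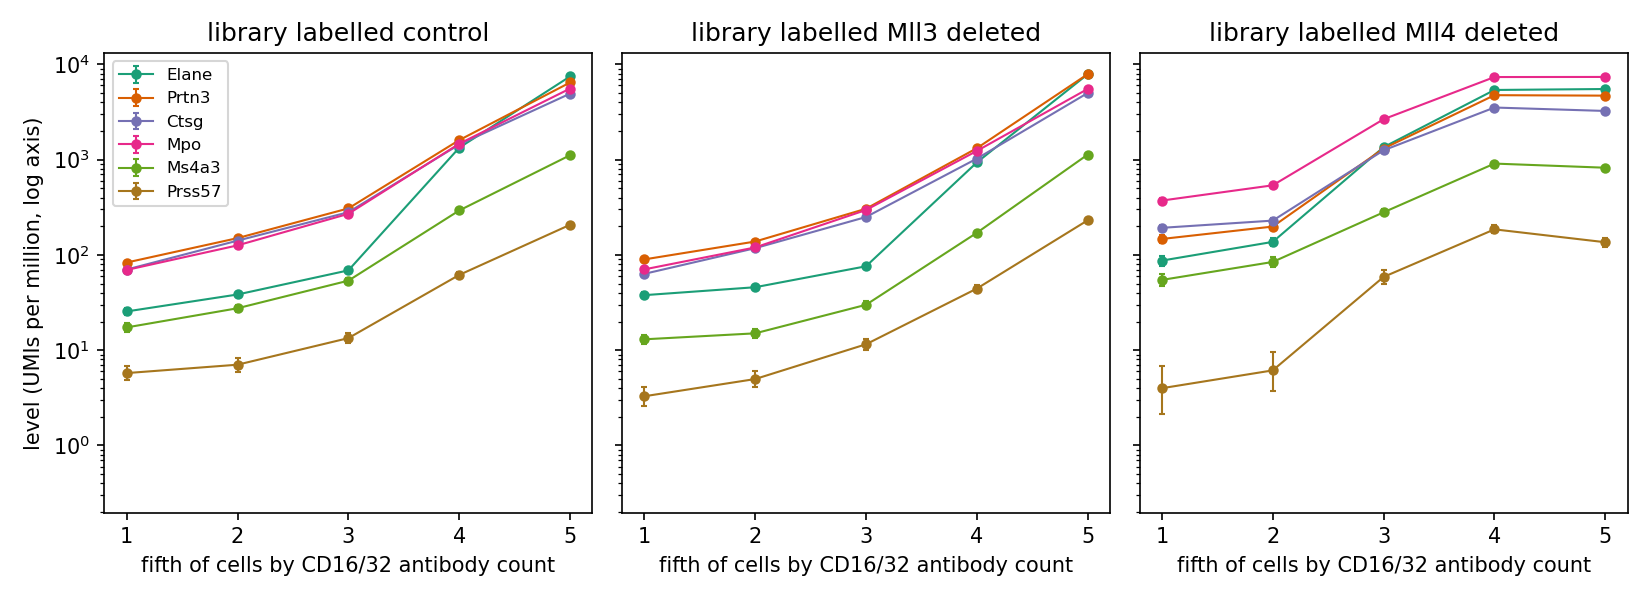
CPM of each of the 6 genes (log axis) in 5 equal groups of cells in the control, Mll3-labelled and Mll4-labelled libraries. The cells are CD117-positive and Sca-1-negative without CD11b or B220, ordered by CD16/32 antibody count within each library. Bars are exact 95% Poisson intervals. In control, Elane goes from 25.5 to 7475 CPM and Prtn3 from 83.2 to 6454 CPM.

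Within granulocyte progenitor-like cells the control, Mll3-labelled and Mll4-labelled libraries lay close together. Elane was at 13401 CPM in control (13304 to 13498), 13740 in Mll3-labelled and 12023 in Mll4-labelled cells (11676 to 12376). Ctsg was at 7208, 6890 and 4934 CPM. Prtn3 was at 10702, 12536 and 9977 CPM. Ctsg was lowest in Mll4-labelled cells, with a log2 ratio of -0.55 (-0.61 to -0.48), the largest difference of the 6 in either comparison. In Mll3-labelled cells 0 of 6 passed the threshold (0.937% of all tested genes lower, 0.319% higher), with a median of 0.04 (0.01 to 0.06) against -0.05 over all genes. In Mll4-labelled cells 0 of 6 passed (9.07% lower, 9.06% higher), with a median of -0.11 (-0.17 to -0.05) against 0.10 over all genes. The median of the Mll3-labelled library changed sign, to -0.02, with another clustering seed, and was -0.14 in the CD34-positive, CD16/32-positive gate. The median of the Mll4-labelled library was -0.53 with a mitochondrial maximum of 5%. The summed neutrophil markers in this class were at 10858 CPM in control, 15145 in Mll3-labelled and 37168 in Mll4-labelled cells, with 6 to 7 of 9 detected, and their part in these values was not tested.

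The 5 granulocyte progenitor-like cells of the Mll3/4-labelled library had Elane at 11315 CPM (10733 to 11921), Prtn3 at 14054, Ctsg at 6422 and Mpo at 4957 CPM. The 6 genes together were at 39231 CPM, and 5 cells are too few for a comparison with control.

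In neutrophil-like cells Elane was at 285 CPM in control (278 to 292), 803 in Mll3-labelled (789 to 818) and 168 in Mll4-labelled cells (162 to 175). Of 9 granulocyte progenitor markers, 8 were detected in this class in control, 8 in Mll3-labelled and 6 in Mll4-labelled cells. Prtn3 was at 297, 747 and 184 CPM. Elane and Prtn3 were higher by the threshold in Mll3-labelled cells, with log2 ratios of 1.49 (1.45 to 1.54) and 1.32 (1.28 to 1.37), and the other 4 genes had 0.42 to 0.91. These are 2 of 6 genes, against 0.273% of all tested genes higher and 0.332% lower, and a median over all genes of -0.02. With cells thinned to 2000 UMIs, Prtn3 was at 0.99, short of the threshold. In Mll4-labelled cells 0 of 6 passed (1.97% lower, 2.91% higher): Ms4a3 had -0.996, just short of the threshold, and Mpo went the other way at 0.42 (-0.66 in the gate described next). Per cell, the 1.89 Mpo UMIs of control and the 0.98 of the Mll4-labelled library were close to the 1.85 and 1.22 of erythroid cells.

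Cells of this class with a large share of UMIs from the 6 genes were then counted. Neutrophil-like cells with at least 1% of their UMIs from the 6 genes were 22 of 1782 in control (1.23%, 0.775 to 1.86%), 49 of 1024 in Mll3-labelled cells (4.79%, 3.56 to 6.28%) and 11 of 2689 in Mll4-labelled cells (0.409%). They held 18.9%, 44.9% and 9.28% of the UMIs of the 6 genes in the class. Without them the 6 genes were at 914, 1411 and 697 CPM and Elane at 191, 325 and 151 CPM. The order was kept, but no gene then passed the threshold in Mll3-labelled cells: Elane had a log2 ratio of 0.76 and Prtn3 of 0.78, in place of 1.49 and 1.32. The cells left out were picked by the same 6 genes, which by rule lowers the summed level of each library. The loss of these calls by itself does not place the difference in those cells. The class was not made of the same clusters in each library. A cluster led by Chil3, Ngp and Camp held 1252 control and 739 Mll3-labelled cells but 26 Mll4-labelled ones, and a cluster led by Hist1h2ap and Wfdc21 held 1709 of the 2689 Mll4-labelled cells. In the first of these, Elane was at 212 CPM in control and 793 in Mll3-labelled cells (log2 ratio 1.90). In a cluster led by Retnlg and Mmp8, with 304, 169 and 727 cells, Elane was at 885, 1356 and 227 CPM.

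The gate positive for CD11b and negative for B220 gave the same order without RNA-based classes. The 6 genes together were at 2952 CPM in control, 7320 in Mll3-labelled and 1074 in Mll4-labelled cells. In Mll3-labelled cells 4 of 6 passed the threshold upwards (Elane 1.41, Prtn3 1.42, Mpo 1.28 and Ctsg 1.08), against 0.331% of all tested genes. In Mll4-labelled cells 4 of 6 passed downwards (Elane -1.83, Prtn3 -1.70, Ctsg -1.58 and Ms4a3 -1.19), against 2.96% of all. Cells with at least 1% of UMIs from the 6 genes were 4.63% of this gate in control, 13.5% in Mll3-labelled and 1.28% in Mll4-labelled cells, and held 71.0%, 84.1% and 35.5% of the UMIs of the 6 genes there. These cells were picked by the same 6 genes, so leaving them out lowers the summed level of every library by rule. Without them none of these 8 calls was kept, which by itself does not place the difference in them. The log2 ratios were then 0.76 for Elane, 0.73 for Prtn3, 0.54 for Mpo and 0.42 for Ctsg in Mll3-labelled cells. In Mll4-labelled cells they were -0.32 for Elane, -0.53 for Prtn3, -0.43 for Ctsg and -0.92 for Ms4a3, and Mpo went from -0.66 to 0.48.

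**Figure D5:**
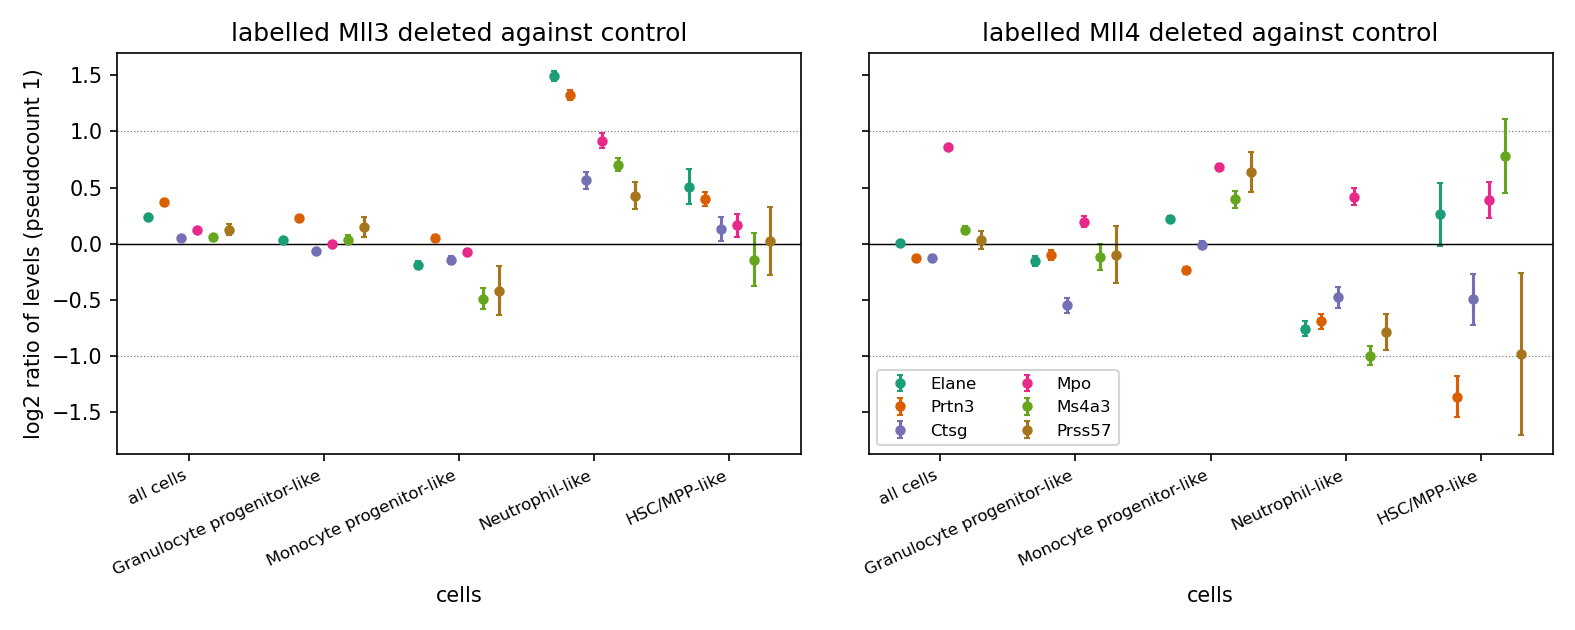
Log2 ratio to control of each of the 6 genes in Mll3-labelled (left) and Mll4-labelled (right) libraries, over all cells and in 4 cell classes, with 95% counting intervals and dotted lines at 1 and -1. The granulocyte progenitor-like points lie between -0.55 and 0.23, Elane and Prtn3 of neutrophil-like cells lie above the line at 1 on the left, and Prtn3 of HSC/MPP-like cells lies at -1.36 on the right.

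Mpo had the largest difference of the 6 genes over all cells of the Mll4-labelled library. Its part in the UMIs of the 6 genes was larger than in control in all of the classes compared, at 22.9% against 18.3% in granulocyte progenitor-like, 36.0% against 26.2% in monocyte progenitor-like and 35.3% against 20.1% in HSC/MPP-like cells. In the gate CD34-positive and CD16/32-positive it was 38.0% against 24.2%. Mpo in monocyte progenitor-like cells was at 5348 CPM in control, 5085 in Mll3-labelled and 8581 in Mll4-labelled cells, a log2 ratio of 0.68 for the last. In granulocyte progenitor-like cells it was at 7497, 7465 and 8592 CPM, a log2 ratio of 0.20, which ran from -0.02 to 0.46 over the alternatives. Neither passed the threshold (7.51% of tested genes were higher by it in monocyte progenitor-like cells). With class levels weighted by the control's class shares, the log2 ratio of Mpo over all cells was 0.58 in place of 0.86, and that of the other 5 lay between -0.31 and -0.05.

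Erythroid cells, which are not known to make myeloperoxidase, showed a difference in Mpo as well. It was at 42.8 CPM in control and 93.4 in Mll4-labelled cells there, higher by the threshold at 1.11, as 4.09% of tested genes were. It took 39.3% of the UMIs of the 6 genes in these cells against 26.8%. The barcodes removed by the filters also had more of it, at 8092 CPM in control, 7565 in Mll3-labelled and 12609 in Mll4-labelled cells, while Elane was at 2274, 2307 and 2466 CPM. The part of free RNA in the levels of Mpo in low classes was not tested.

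In HSC/MPP-like cells Prtn3 was at 539 CPM in control (523 to 555), 712 in Mll3-labelled (690 to 735) and 209 in Mll4-labelled cells (184 to 236). It was lower by the threshold in Mll4-labelled cells, at -1.36 (-1.55 to -1.18), the only one of 6, where 5.3% of all tested genes were lower and 4.89% higher. The share of thinned cells with a Prtn3 UMI was 62.1%, 72.6% and 30.3%, against 12.5%, 18.1% and 12.7% in erythroid cells. The median depth of the class was 11177, 11123.5 and 4247 UMIs, and that of erythroid cells 46779.5, 45900.0 and 12286.5. In the Sca-1-positive, CD117-positive gate Prtn3 was at 477, 692 and 288 CPM, lower in Mll4-labelled cells but short of the threshold. Its log2 ratio in the class was -0.69 without doublet removal, short of the threshold. The summed neutrophil markers in the class were at 1510, 1270 and 3866 CPM with 6 of 9 detected in each library, and their part was not tested.

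Basophil/mast-like cells had Ctsg at 931 CPM in control, 836 in Mll3-labelled and 1033 in Mll4-labelled cells, the largest part of the 6 genes in this class in control. Prtn3 was at 528, 532 and 213 CPM and Ms4a3 at 388, 298 and 160 CPM. In Mll4-labelled cells Prtn3 (-1.30), Ms4a3 (-1.27) and Prss57 (-1.58) were lower by the threshold, 3 of 6 against 4.62% of all tested genes. Ctsg stayed near control in the same cells. The class had 114, 60 and 233 cells, of which 114, 60 and 169 had at least 2000 UMIs. Over all cells the mast cell gene Cma1 was at 1.19 CPM in control and 70.7 in Mll4-labelled cells. The part of depth, or of the mix of basophil and mast cells, in these values was not tested.

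In Mll3/4-labelled cells 32 cells of myeloid classes held 58.5% of the UMIs of the 6 genes and 10 cells of unnamed clusters held 22.4%. The 6831 B-cell progenitor-like cells, 98.8% of the library, held 17.9%. In these cells Elane was at 6.34 CPM, Prtn3 at 10.2, Ctsg at 9.04, Mpo at 8.76, Ms4a3 at 2.003 and Prss57 at 0.50 CPM. The 469 B-cell progenitor-like cells of control had 139, 189, 216, 186, 51.1 and 13.9 CPM in that order. All 6 were lower by the threshold, where 7.39% of tested genes were, with a median log2 ratio of -4.19 (-4.34 to -4.03) against 0.02 over all genes.

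Per cell, the 6 genes together averaged 0.41 UMIs in the B-cell progenitor-like cells of the Mll3/4-labelled library and 5.38 in those of control. No UMI of any of the 6 was found in 5100 of 6831 cells (74.7%) and in 6 of 469 (1.28%), at median depths of 9936 and 4389 UMIs. The 19 T/NK/innate lymphoid-like cells of the Mll3/4-labelled library averaged 0.21 UMIs of the 6 genes, and too few were kept for a comparison with control. The part of free RNA in the levels of these lymphoid classes was not tested. Where free RNA was subtracted in other classes, the level of the B-cell progenitor-like cells was taken to stand for it. In Mll3/4-labelled cells 2 B-cell progenitor-like cells with over 20 UMIs of the 6 genes held 22.3% of the class total, and without them the level was 28.6 CPM in place of 36.8. The control cells of the class lay in other clusters than those of the Mll3/4-labelled library, and the summed neutrophil markers were at 2432 and 81.3 CPM.

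The nearest annotated genes on each side of the 6 were examined next. In the chromosome 10 interval Ptbp1, a splicing regulator between Prss57 and Prtn3, was at 142 CPM in control and had log2 ratios of -0.08, -0.24 and -0.27 in the Mll3-, Mll4- and Mll3/4-labelled libraries. Med16, a Mediator subunit downstream of Elane, had 0.03, 0.26 and -0.06. Plppr3, which overlaps Prtn3, had -0.10, 0.36 and -3.11 at 16.8 CPM in control, and Palm, beside Prss57, had -0.10, 1.47 and -2.77. In Mll3/4-labelled cells 2 neighbours in the interval thus fell, as 11.7% of all tested genes did, and Ptbp1 and Med16 stayed near control. Outside the interval R3hdm4 had -0.72 and Rnf126 -0.95 in these cells, and Tspoap1, beside Mpo, had -1.86. Beside Ctsg, the basophil protease gene Mcpt8 had -1.02, 1.97 and -3.63. Beside Ms4a3, the mast cell receptor gene Ms4a2 had -0.81, 1.87 and -2.54. Both of these rose in Mll4-labelled cells, as 5.74% of all tested genes did, and Ctsg and Ms4a3 did not. Mcpt8 and Ms4a2 are also markers of basophil/mast-like cells, which were a larger part of the Mll4-labelled library than of control. All ratios of neighbours are over all cells, and the part of cell mix in them was not tested.

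Likeness was measured by Pearson's r of log2(CPM + 1) with the mean of the 6 genes, over 28 class-by-library sums and 8227 genes, as a description of sums that share libraries and depth. The highest of the other genes were Tspoap1 (0.929), Adssl1 (0.916), Pgam1 (0.913), Gstm1 (0.898) and Fcgr3 (0.877). Tspoap1 lies 7653 bp from Mpo and was at 29.8 CPM in control granulocyte progenitor-like and 2.06 in HSC/MPP-like cells. The next 5 were Dmkn (0.873), Anxa3 (0.8695), Ly6c2 (0.868), Plppr3 (0.862) and Atp8b4 (0.861). Each of the 6 genes had an r of 0.937 (Ms4a3) to 0.974 (Prtn3) with the mean of the other 5, and the pairs ran from 0.877 (Mpo with Prss57) to 0.981 (Ctsg with Mpo). Gstm1 is also among the markers that named granulocyte progenitor-like cells.

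Genes of the later granules gave other counts than the primary ones. Of 12 secondary and tertiary granule genes, 12 fell in Mll3/4-labelled cells over all cells (median -4.41), against 11.7% of all tested genes. In Mll4-labelled cells 11 rose (median 1.69), against 5.74% of all. In Mll3-labelled cells 1 fell (median -0.63), against 0.467% of all. Of the 6 primary genes, 6, 0 and 0 did so in these comparisons. Camp, an antimicrobial peptide precursor, was at 9839 CPM in control, 6951 in Mll3-labelled, 16615 in Mll4-labelled and 322 in Mll3/4-labelled cells. Lcn2, the siderophore-binding lipocalin, was at 2331, 1430, 5640 and 84.3 CPM. Within granulocyte progenitor-like cells of the Mll4-labelled library 7 of 9 tested secondary and tertiary genes rose (median 1.55), against 9.06% of all tested genes. Among them were Ngp, from 302 to 632 CPM, and Lcn2, from 98.3 to 290 CPM, while 0 of the 6 primary genes rose. In B-cell progenitor-like cells of that library 6 of 7 rose (median 1.71), where 705 of 8726 tested genes did. In monocyte progenitor-like cells 6 of 9 rose (median 1.39, 7.51% of all tested genes). In neutrophil-like cells 2 of 12 rose (median 0.24, 2.91% of all). The part of free RNA in these values was not tested. The Mll4-labelled library had a larger share of neutrophil-like cells, 50.3% against 24.9%, which moves with the all-cell values. The Mll3/4-labelled library had 23 neutrophil-like cells among 6917, which moves with its all-cell values as well.

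Among 10 regulators of primary granule genes, 6 fell in Mll3/4-labelled cells (median -2.29), where 11.7% of all tested genes did, and 4 rose in Mll4-labelled cells (median 0.86), where 5.74% did. In Mll3-labelled cells 0 changed (median -0.30). Spi1, which encodes PU.1, was at 113 CPM in control and 8.31 in Mll3/4-labelled cells (-3.61), and Cebpe, a factor of granule maturation, at 152 and 4.88 CPM (-4.70). Myb and Runx1 were at -0.05 and -0.10 in the same comparison. Over all cells Spi1 and Cebpe were thus low with the 6 genes, and Myb and Runx1 were not. Of the 6917 cells of that library 6831 were B-cell progenitor-like. Within that class the log2 ratios were -3.35 for Spi1, -2.97 for Cebpe, -0.44 for Myb and -0.68 for Runx1. Its granulocyte progenitor-like cells, too few for a comparison, had Spi1 at 288 CPM (253 in control) and Cebpe at 424 CPM (288 in control). The part of cell mix in the all-cell values was not tested. Among 10 genes of protease activation, storage and inhibition, 5 fell in Mll3/4-labelled cells (median -0.998), 2 rose in Mll4-labelled and 0 changed in Mll3-labelled cells, against the same 11.7% and 5.74% of all tested genes. Srgn, the proteoglycan that packs granule proteases, was at 814, 734, 546 and 328 CPM in the 4 libraries, and the chaperones Calr and Hsp90b1 had -0.59 and 0.48 in Mll3/4-labelled cells.

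Of 10 tested genes for other lysosomal and azurophil contents, 4 fell in Mll3/4-labelled cells (median -0.83) and 2 rose in Mll4-labelled cells. Of all tested genes 11.7% fell and 5.74% rose in these comparisons, which are the background for the other lists here as well. Lyz2, the lysozyme gene, was at 2531, 1423, 5927 and 56.3 CPM, and unlike the 6 genes it was higher in control neutrophil-like (15508 CPM) than in granulocyte progenitor-like cells (346 CPM). Among 8 tested granule protease relatives 4 fell in Mll3/4-labelled cells, and 7 of 9 rose in Mll4-labelled cells, led by mast cell genes such as Cma1, from 1.19 to 70.7 CPM. Of 8 tested Ms4a family genes other than Ms4a3, 3 fell in Mll3/4-labelled and 4 rose in Mll4-labelled cells. Of the peroxidase relatives of Mpo, Lpo was at 0 to 0.061 CPM and Epx at 0 to 0.507 CPM, so Mpo was the only one with more than trace counts.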

How the data were processed

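Single-cell transcripts and surface antibodies were measured in 1 library for each of 4 groups. The deposited matrices hold UMI counts without normalization, made by the authors with Cell Ranger 6.1.2 on mm10 per the submitters' processing notes, from 10x Genomics 3′ version 3.1 libraries per the labels' protocols. They hold 13 surface antibodies and 2 hashtags, and the labels do not say what the hashtags mark, so these were not used. The 6 genes, the gene lists and the classes were chosen with earlier results of these data known.

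A barcode had to have 500 genes, 1000 gene UMIs and no more than 10% of UMIs from mitochondrial genes. Scrublet (scanpy 1.11.5) gave each library its doublet scores, and the highest 0.8% per 1000 barcodes were taken out. Cells were clustered on 2000 variable genes without the 6 genes (30 components, 15 neighbours, Leiden resolution 1, seed 0) and named where at least 3 fixed markers were seen in at least 10% of cells. Antibody gates used a 2-component Gaussian mixture fitted in control, and thresholds under 5 counts were not used. UMIs were summed per library and class and given as CPM with exact Poisson intervals, and shares of cells with exact binomial (Clopper-Pearson) intervals. Log2 ratios have a pseudocount of 1 CPM, and genes were tested against the threshold with at least 20 counts in either library. Classes under 50 cells in a library were not compared. The ratio script was checked on simulated data. Of the gene identifiers, 32158 of 32285 were in GENCODE M21, and positions come from it.

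The genes named in the text are the 6, up to 4 genes a list with the most UMIs over all libraries, the 10 genes most like the 6, the nearest 3 annotated genes on each side, Kmt2c and Kmt2d. Xist, and the leading genes and markers of clusters, were named after their values were seen. Alternatives were other filters, TMM scaling (edgeR 4.0.16, used only for its factors on the deposited counts), another pseudocount, means over cells, thinning, other clusterings, antibody gates in place of classes and subtraction of free RNA. The free RNA of a library was taken as the mean UMIs per cell of each gene in its B-cell progenitor-like cells. It was not subtracted in the Mll3/4-labelled library.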

Additional observations from a re-analysis of the deposited data

Results flagged for a closer look

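In the Mll3-labelled library against control, the log2 ratio of Ctsg was -0.07 in granulocyte progenitor-like cells and 0.56 in neutrophil-like cells. The 2 values have opposite signs with counting intervals that leave out 0, which is what drew notice to them. Neither passed the threshold, and the median over all tested genes in granulocyte progenitor-like cells was -0.05, close to the first. The difference between the classes was not tested, since each group has 1 library. Ctsg in control neutrophil-like cells averaged 1.69 UMIs per cell, close to the 1.67 of erythroid progenitor-like cells, and in the Mll3-labelled library 2.58 and 2.30.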

How the results depend on the processing

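No paired analysis was possible because each group has 1 library, and there is no leave-one-out for the same reason. Values given are medians of the 6 log2 ratios, and none that passed 1 in size changed sign. Over all cells of the Mll3-labelled library (0.12) they were 0.08 without doublet removal, 0.07 with a mitochondrial maximum of 5%, 0.16 with TMM scaling, 0.23 as a mean over cells and 0.21 after thinning to 2000 UMIs. For the Mll4-labelled library (0.02) they were -0.03 without doublet removal and with all barcodes, -0.08 with TMM scaling, -0.22 as a mean over cells and -0.16 after thinning, so no direction was shown. For the Mll3/4-labelled library (-4.30) they were -4.44 without doublet removal, -5.22 as a mean over cells, -4.04 with a pseudocount of 10 CPM, -5.23 after thinning and -4.15 with all barcodes. The difference from the sum of the single-label ratios (-4.39) was -4.47 with a mitochondrial maximum of 5%, -5.18 as a mean over cells, -4.12 with a pseudocount of 10 CPM, -5.25 after thinning and -4.23 with all barcodes.

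In granulocyte progenitor-like cells of the Mll3-labelled library (0.04) they were 0.01 without doublet removal, 0.09 with TMM scaling, -0.02 with seed 1 and -0.14 in the antibody gate. For the Mll4-labelled library (-0.11) they were -0.53 with a mitochondrial maximum of 5%, -0.33 with TMM scaling, -0.41 after thinning, -0.19 with seed 1 and -0.42 in the gate. In B-cell progenitor-like cells of the Mll3/4-labelled library (-4.19) they were -4.76 as a mean over cells, -3.25 with a pseudocount of 10 CPM, -4.61 after thinning, -5.48 in the B220-positive gate and -4.40 without cells over 20 UMIs of the 6 genes.

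The neutrophil-like comparison, free RNA subtraction and both ways of leaving out cells with many UMIs of the 6 genes were added after seeing the data. Neutrophil-like cells of the Mll3-labelled library (0.81) gave 0.66 after thinning, 0.76 with the 6 genes kept in the clustering, 1.18 in the CD11b gate, 1.55 with free RNA subtracted, 0.54 without cells with at least 1% of UMIs from the 6 genes and 0.55 without them in the gate. In the Mll4-labelled library (-0.72) they gave -0.80 without doublet removal and with a mitochondrial maximum of 5%, -0.82 with TMM scaling and with free RNA subtracted, -0.65 with a pseudocount of 10 CPM, -0.77 with seed 1, -1.38 in the gate and -0.48 without such cells, in the class and in the gate. The cause of these shifts was not tested. Of the other values, 46 stayed close to the main ones. Some of these are counts of genes in the other lists with a higher minimum of counts, judged by the size of the count. The rest are medians that moved by less than the counting error. With the 6 genes kept in the clustering, HSC/MPP-like cells of the Mll4-labelled library numbered under 50 and gave no value. The depth of the Mll4-labelled library, and 63 granulocyte progenitor-like cells in it, limit what can be seen there.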
